A study of Homo sapiens with 2 samples.

Results

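Double-stranded RNA in the cytoplasm or in endosomes is read by a small set of sensors, which pass the signal through adaptors and kinases to the transcription factor IRF3. The genes described here are the sensors *RIGI*, *IFIH1*, *DHX58*, *TLR3*, *EIF2AK2* and *ZBP1*, the mitochondrial adaptor *MAVS*, the kinases *TBK1* and *IKBKE*, and *IRF3*. They were taken by name, as features with exactly 1 gene symbol in the platform annotation, and all 10 were found among 22368 measured genes, each with 1 feature. HCECs, human corneal epithelial cells immortalized with SV40, received either a miR-184 mimic or the negative control (NC), each at 50 nM and with Lipofectamine RNAiMAX, and total RNA was profiled at 48 h on 1 array per condition. Both conditions received a synthetic oligonucleotide and the same lipid, no untransfected culture was analysed here, and HCECs are a single immortalized line. There is no replicate, so a difference carries no error and no *P*-value, and an effect of miR-184 cannot be told apart from a difference between the 2 cultures. In such bulk RNA, fewer cells of a type and less RNA per cell cannot be told apart either.

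RIG-I (from *RIGI*) and MDA5 (from *IFIH1*) are helicases of the cytoplasm that bind double-stranded RNA and then assemble MAVS on the outer membrane of mitochondria. TLR3 binds such RNA in endosomes and signals through its own adaptor, TRIF. Both routes meet at the kinases TBK1 and IKK-epsilon (from *IKBKE*), which phosphorylate IRF3, and IRF3 switches on interferon genes. Epithelial cells of the ocular surface are known to use this pathway against viruses. Most of the sensors are themselves induced by interferon.

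The transfected miR-184 mimic is itself a short RNA duplex that supplies the mature strand below, shown because the conditions differ by it. The sequence is that of RefSeq (GRCh38.p14, chr15:79209840-79209861, plus strand), 5′ to 3′, and the capitals mark the seed, bases 2 to 8. Of 2545 mature human miRNAs in that table, 1 has this seed, miR-184 itself.
hsa-miR-184: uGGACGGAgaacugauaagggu
The sequence of the NC oligonucleotide was not used here.

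Of the 10 genes, *TLR3* and *MAVS* were lower with miR-184 than with NC by at least 1.5 times, and none was higher by that much. Both were also more than 2 times lower. The other 8 genes differed by less, from -0.38 to 0.03 on the log2 scale. The count of 2 in 10 (20.0%) stands beside 4.17% of all 22368 genes that were lower by at least as much and 3.74% that were higher. All 10 genes had a mean signal at or above the median of all genes, and among the 11184 genes with such signals 7.77% were lower and 6.25% higher by 1.5 times or more, and 2.66% were lower by 2 times or more. The median difference of the 10 genes was -0.28, against 0.04 over all genes and -0.02 over those with signals from the median upward. The threshold is the ratio by which the study selected lowered genes, which rounds to 1.5 times, and its mirror. The *P*-value that the study also required could not be computed here. A value is a log2 signal of a feature, whose brightness also depends on its probes, so the signals of different genes are not compared as transcript levels.

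**Figure D1:**
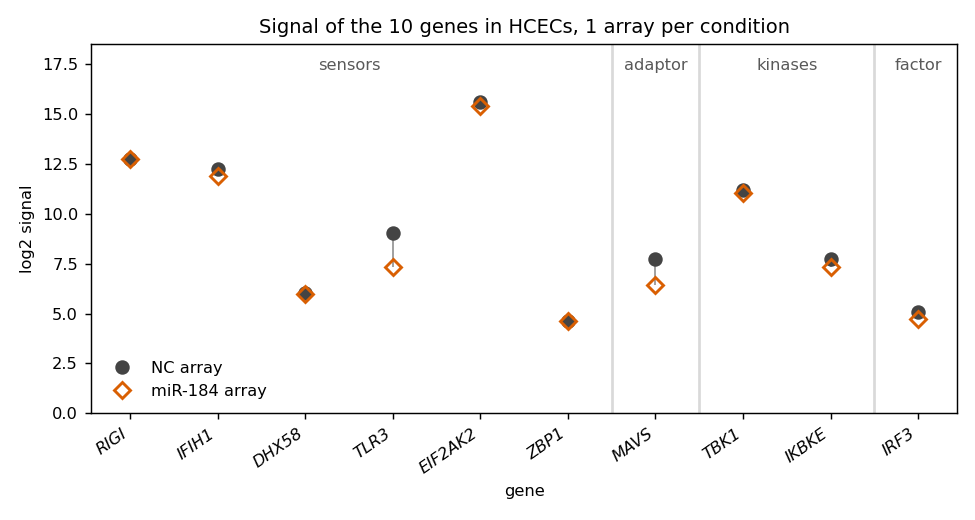
Log2 signal (y axis) of the 10 genes (x axis, grouped by role) in the NC array (filled circles) and the miR-184 array (open diamonds), 1 array each, with a line joining the values of a gene. *TLR3* (9.04 and 7.33) and *MAVS* (7.71 and 6.41) are the genes whose symbols stand farthest apart.

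*TLR3*, the endosomal sensor, had log2 signals of 7.33 with miR-184 and 9.04 with NC. It was 3.27 times lower with miR-184 (30.6% of NC), a difference of -1.71. It stood 67th from the lowest difference among the 11184 genes of median signal or more. Among 1301 genes with a mean signal within 0.5 of its own, 13 (0.999%) were as low or lower, itself included. The adaptor that TLR3 uses, TRIF (from *TICAM1*), had signals of 4.85 with miR-184 and 4.54 with NC, a difference of 0.31 that did not reach the threshold. *UNC93B1*, which carries TLR3 to endosomes, gave 7.94 and 8.06.

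*MAVS*, through which RIG-I and MDA5 signal, had log2 signals of 6.41 with miR-184 and 7.71 with NC. It was 2.47 times lower (40.4% of NC), a difference of -1.31, and was 161st in the same order. Of 1707 genes with a mean signal within 0.5 of that of *MAVS*, 30 (1.76%) were as low or lower. *MAVS* belongs to the genes that the study listed as lowered on these same arrays and predicted as targets of miR-184, so its direction is not independent evidence. Without it the other 9 genes had a median difference of -0.21, and *TLR3* alone of them was past the threshold. Among all genes with signals from the median upward, 7.77% were lower by 1.5 times or more. The share was 9.38% among genes with a mean signal within 0.5 of that of *TLR3*. Whether the *MAVS* transcript holds a site for the seed printed above was not examined here, because no transcript sequence was used.

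The helicases that feed into MAVS differed less than MAVS itself. *RIGI* gave 12.75 with miR-184 and 12.73 with NC, a difference of 0.027 that turned to -0.014 after centring of the differences. *IFIH1* gave 11.88 and 12.23, a difference of -0.35 (1.27 times lower). *DHX58*, whose product LGP2 is a related helicase that lacks the signaling domain and modulates the other two, gave 5.98 and 6.05. The differences of all 3 helicases lay inside the threshold. As low as *IFIH1* or lower were 88 of 340 genes of like signal (25.9%), and as low as *DHX58* were 44.0% of 1904.

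*EIF2AK2*, which encodes PKR, the kinase that halts translation when it binds double-stranded RNA, gave 15.40 with miR-184 and 15.61 with NC. Its difference of -0.21 became 0.0097 after quantile normalization, so that its direction depended on the scaling of the arrays. Only 36 genes had a mean signal within 0.5 of that of *EIF2AK2*, and their own median difference was -0.27. *ZBP1*, a sensor of Z-form nucleic acid that can start necroptosis, gave 4.64 and 4.61, a difference of 0.028 that turned to -0.012 on centring. Its mean signal stood at the 54.7th percentile of all genes, the lowest of the 10.

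Downstream of the adaptors, the kinase gene *TBK1* gave 11.04 with miR-184 and 11.17 with NC, a difference of -0.13. *IKBKE*, its relative, gave 7.35 and 7.73, and its difference of -0.38 was the one nearest to the threshold among the 8 genes inside it. *IRF3* gave 4.71 and 5.07 (-0.35), and 11.9% of 2319 genes of like signal were as low or lower. The 2 kinases and *IRF3* thus all lay below 0, by 1.09 to 1.31 times, and none was past the threshold.

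**Figure D2:**
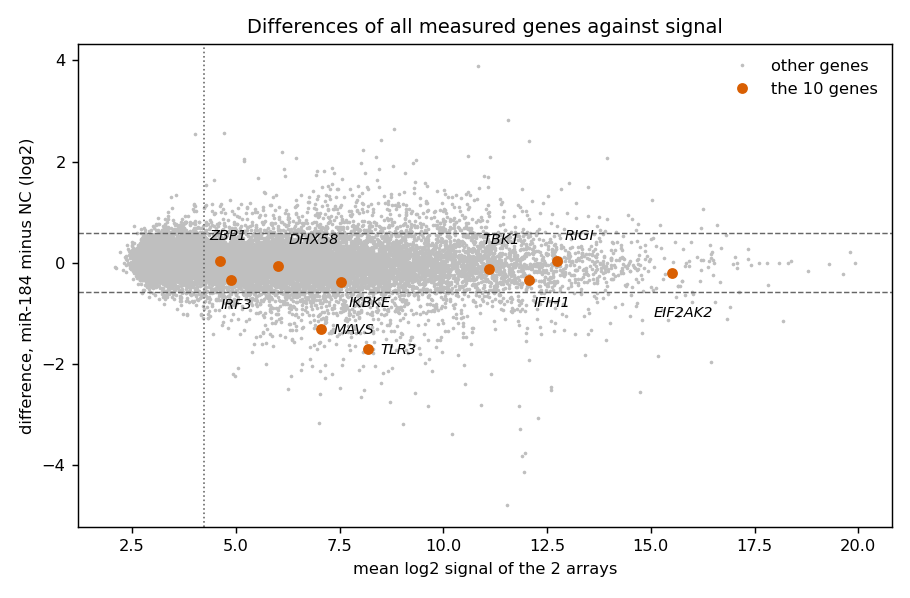
Log2 signal with miR-184 less that with NC (y axis), against the mean log2 signal of the 2 arrays (x axis) for all 22368 genes (grey), with the 10 genes in orange. Dashed lines mark 1.5 times in each direction and the dotted line the median signal, and *TLR3* and *MAVS* lie below the lower dashed line at -1.71 and -1.31.

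An interferon-stimulated response element holds repeated GAAA units, and the promoters of the 10 genes were searched for them and for other motifs. RefSeq promoters (GRCh38.p14, 250 bases before to 50 bases after the transcript start) were at hand for 7 of the 10, all but *DHX58*, *IRF3* and *ZBP1*. A pair of GAAA units with 2 bases between them, on either strand, was found in 3 of these 7, *TLR3*, *IFIH1* and *EIF2AK2*, and in 3.57% of all 35116 promoters in that table. It was 1 of 5 motifs searched and is the one shown because it was found in these members, so its share among them is a description and is not to be read against that of all promoters. The shorter spacing, with 1 base between the units, was added after the promoter of *RIGI* had been read, and was found in *RIGI* alone of the 7, and in 3.12% of all promoters. Of the other motifs, on either strand, a gamma-activated site (TTC and GAA with 3 bases between them) was found in *TLR3* and in 7.66% of all promoters. An NF-kB site (GGGA and TTTCC with 1 base between them) was found in *RIGI* and *IFIH1* and in 0.558% of all promoters, and TATAAA was found in none of the 7 and in 11.5% of all. None of the 5 motifs was found in the windows of *MAVS*, *TBK1* and *IKBKE*. The windows are printed on the strand of the gene, 5′ to 3′, with the motif in capitals (a motif on the other strand reads as TTTC units), and they show that the lower *TLR3* shares these letters with *IFIH1* and *EIF2AK2*, whose differences were inside the threshold. The motif starts 4 bases before the transcript start in *TLR3*, 21 in *IFIH1*, 6 in *EIF2AK2* and 203 in *RIGI*.
TLR3, chr4:186069142-186069171, plus strand: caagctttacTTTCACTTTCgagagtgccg
IFIH1, chr2:162318686-162318715, minus strand: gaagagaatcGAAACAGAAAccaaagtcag
EIF2AK2, chr2:37156967-37156996, minus strand: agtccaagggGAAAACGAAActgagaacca
RIGI, chr9:32526381-32526409, minus strand: ggtgcggaggGAAACGAAActagcccgag
*IFIH1* holds 2 further matches to the longer spacing, which overlap each other, 159 and 153 bases before the start on the other strand. A match is a description of the letters and not a site that was shown to be used.

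Other sensors of foreign nucleic acid included several lower genes. Of 22 measured genes of this list, 4 (18.2%) were at least 1.5 times lower and none higher, with a median difference of -0.19. The shares over all genes were 4.17% lower and 3.74% higher. They were 7.77% and 6.25% among genes with signals from the median upward, where 20 of the 22 lay. The 4 lower genes were the oligoadenylate synthetases, which make short oligoadenylates when they bind double-stranded RNA. *OAS2* gave 12.49 with miR-184 and 14.32 with NC (-1.83), *OAS1* gave 8.15 and 9.29 (-1.14), *OASL* 8.20 and 9.15 (-0.96), and *OAS3* 12.48 and 13.29 (-0.81). *OASL* lacks the synthetase activity of the others. *ADAR*, which edits double-stranded RNA, gave 12.70 and 12.94, and *CGAS*, the sensor of cytoplasmic DNA, gave 6.98 and 7.21, and neither reached the threshold.

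The proteins that regulate RIG-I and MDA5 had 2 lower genes of 16 measured (12.5%) and none higher (median -0.17). Beside this, 4.17% of all genes were lower and 3.74% higher. Among genes with signals from the median upward, where 15 of the 16 lay, 7.77% were lower and 6.25% higher. *DAPK1*, a kinase that restrains RIG-I, gave 7.93 with miR-184 and 9.58 with NC (-1.65, 3.13 times lower). *TRIM38*, a ligase that modifies the helicases, gave 9.51 and 10.11 (-0.60). *TRIM25*, the best known ubiquitin ligase of RIG-I, shares its feature with another symbol and has no value here.

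Of 22 measured genes of the MAVS complex, 13 lay above 0 and 8 below, with a median of 0.10. The median was 0.04 over all genes and -0.02 over those with signals from the median upward, where 21 of the 22 lay. By 1.5 times or more, 1 was lower (4.55%) and 3 were higher (13.6%). The shares were 4.17% and 3.74% over all genes, and 7.77% and 6.25% over those with signals from the median upward. *SMURF2*, a ubiquitin ligase reported to act on MAVS, gave 13.58 with miR-184 and 12.12 with NC (1.46), *MFN1*, which fuses mitochondria and binds MAVS, 9.18 and 8.31 (0.87), and *TAX1BP1*, which recruits the ligase ITCH to MAVS, 12.75 and 12.16 (0.60). The lower gene was *IFI35* (-0.72), an interferon-induced gene. *TRAF3*, which links MAVS to TBK1, gave 7.09 and 6.61 (0.48), inside the threshold. None of the 13 scaffold and adaptor genes around TBK1 and TLR3 passed the threshold in either direction.

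At the output of the pathway, the 14 measured interferon genes had signals of at most 5.53 with miR-184 and 5.68 with NC, and none passed the threshold (median 0.03). *IFNB1*, the direct target of IRF3, gave 3.24 and 3.04, below the median signal of all genes (4.24), as did all but 1 of the 14. Of 6 measured interferon regulatory factors besides *IRF3*, 1 (16.7%) was lower and none higher, beside 4.17% of all genes that were lower. The lower gene was *IRF1*, with 6.68 and 7.47 (-0.79). *IRF7*, the inducible relative of *IRF3*, gave 4.62 and 4.58. The chains of the interferon receptor gave 11.03 and 10.93 for *IFNAR1*, and 8.14 and 8.20 for *IFNAR2*. In the list of receptors and JAK-STAT genes, 2 of 15 (13.3%) were higher and none was lower, beside 3.74% of all genes that were higher. The share was 6.25% among genes with signals from the median upward, where 14 of the 15 lay. The 2 were *SOCS3* (0.73), at low signals of 4.93 with miR-184 and 4.20 with NC, and *STAT3* (0.70). *IRF9* shares its feature with another symbol and has no value here.

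Genes that IRF3 or the interferon receptor switches on were often lower, and the list was chosen with that pattern in these data known. Of 34 measured, 15 (44.1%) were at least 1.5 times lower and 1 (2.94%) was higher, with a median of -0.54. Over all genes, 4.17% were lower and 3.74% higher. With signals from the median upward, where 32 of the 34 lay, 7.77% of genes were lower and 6.25% higher. *BST2*, which tethers virus particles to the cell, gave 8.57 with miR-184 and 10.56 with NC (-1.98). *BST2* too is in the list that the study chose on these arrays. *IFI6* gave 15.46 and 17.43 (-1.97), and *RSAD2*, whose product viperin makes a chain-terminating nucleotide, 7.54 and 9.12 (-1.58). *LGALS3BP*, a secreted glycoprotein, gave 11.98 and 13.34 (-1.36). The higher gene was *TRIM21* (0.67), an antibody receptor of the cytoplasm. *MX2*, counted among the 15, had a difference of -0.58, at the threshold itself. Within these arrays, *TLR3* was lower by about as much as *RSAD2*, which is among the lowest of this list. *RIGI*, *IFIH1* and *DHX58*, which are also interferon-induced, had differences between -0.35 and 0.03, as did *EIF2AK2* and *ZBP1*. Of the 34 measured genes of the list, 18 lay inside the threshold too.

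**Figure D3:**
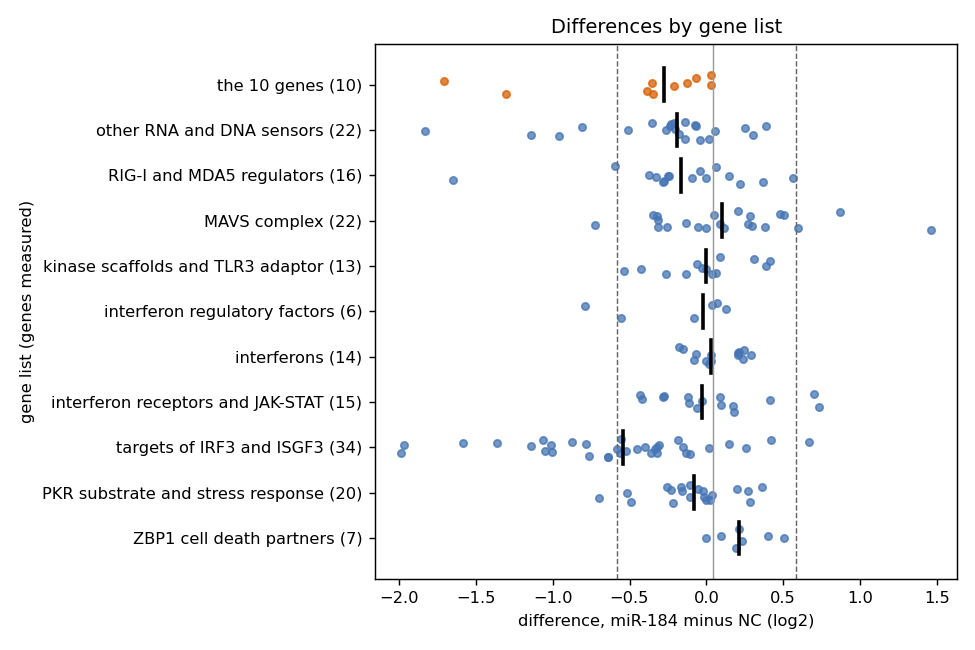
Log2 signal with miR-184 less that with NC (x axis), of each measured gene (points) in the 10 genes (orange) and in related lists (blue, y axis, with the number measured), with the median of each list as a black bar. Dashed lines mark 1.5 times in each direction and the grey line the median of all genes (0.04), and the largest share of genes left of the lower dashed line is in the targets of IRF3 and ISGF3, with 15 of 34.

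The genes downstream of PKR and ZBP1 were read in the same way. Of 20 measured genes around the PKR substrate eIF2 and the stress response, 1 (5%) was lower and none higher (median -0.08). That share lay between the 4.17% of all genes and the 7.77% of those with signals from the median upward. The lower gene was *NPM1*, a nucleolar protein reported to bind PKR (13.51 with miR-184 and 14.21 with NC, -0.70). *EIF2S1*, the subunit of eIF2 that PKR phosphorylates, gave 12.29 and 12.09. Of 7 measured partners of ZBP1 in cell death none passed the threshold (median 0.21), and *RIPK3*, the kinase through which ZBP1 starts necroptosis, gave 3.18 and 2.95, below the median signal.

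The 2 arrays had a Pearson correlation of 0.989 across 65854 features, median signals of 3.68 (miR-184) and 3.61 (NC), and the same upper limit of 19.93. The value was identical in both arrays for 923 genes, none of them among the 10. Of 9 measured epithelial markers, *KRT8*, *KRT18*, *KRT5*, *EPCAM* and *CDH1* had log2 signals above 12 in both arrays. *KRT3* and *KRT12*, which mark differentiated corneal epithelium, were below the median signal, as was *PAX6*, all at 3.44 to 3.82. The remaining marker, *KRT14*, was also below it, with 3.75 (miR-184) and 3.56 (NC). *KRT5* and *CDH1* were higher with miR-184, by 0.88 and 0.75. The 5 fibroblast markers measured (3.19 to 4.14 with miR-184 and 2.98 to 4.24 with NC) and the 2 melanocyte markers were below the median signal. Of 4 leukocyte markers, *CD68* (7.63 and 7.62) was above it, and *CD14* (3.78 and 3.19) was past the threshold at a low signal. Of 3 endothelial markers, *CDH5* gave 6.77 and 8.19, a difference of -1.42 (2.67 times lower) that was past the threshold. *PECAM1* and *VWF* were below the median. The part of these markers in the differences of *TLR3* and *MAVS* was not tested.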

How the data were processed

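The deposited values are log2 signals per transcript cluster. In the study's methods, an Affymetrix Human Transcriptome Array was used, with normalization by the authors in Expression Console. The feature identifiers are of that array. The labels instead describe an Agilent kit with Cy3, and Agilent Feature Extraction 9.1 is named in the processing notes of the submitters. No source used here gives the genome build behind the features.

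Features with exactly 1 symbol (23730 of 65854) were named, with 303 symbols updated through the RefSeq annotation of GRCh38.p14. The feature with the highest mean signal stood for a gene. The difference is log2 miR-184 minus log2 NC, without further normalization or a filter. With 1 array per condition no test was run. The number of arrays limits the precision.

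The members and gene lists were chosen with earlier results of these data known. All 10 members are named. From each other list, up to 4 genes with the largest differences past the threshold and up to 2 by role are named. *UNC93B1*, *MX2* and the cell type markers given singly were named after their values were seen. Alternatives were centring, quantile normalization, loess (span 0.3), averaged features, a threshold of 2 times, a signal filter and all features. The steps were tested on simulated data. The simulated noise was smaller than the spread of the differences at or above the median signal (standard deviation 0.46). The simulation therefore does not show how often unchanged genes pass the threshold in these arrays. Python 3.11.15, numpy 2.4.6, pandas 2.3.3 and statsmodels 0.14.6 were used.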

Additional observations from a re-analysis of the deposited data

How the results depend on the processing

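*TLR3* stayed between -1.75 and -1.65 and *MAVS* between -1.35 and -1.26 under centring on the median, quantile normalization, loess removal of the trend with signal and averaging of features, and both remained past the threshold under a threshold of 2 times. The other 8 genes stayed inside it, at most 0.43 from 0. For 3 of them, *RIGI*, *EIF2AK2* and *ZBP1*, the sign turned under 1 of these settings. The median of the 10 genes ranged from -0.32 to -0.19. Leaving out *MAVS* was chosen after seeing the data. Counting all 65854 features gave 2711 lower and 2688 higher, where the 22368 genes gave 933 and 837. These counts have different totals and are not to be set against each other directly. The mean of features could change no member, since each has 1 feature. No paired analysis was possible because each condition has 1 array. Signals near the median of all genes, as of *ZBP1* and *IRF3*, limit what could be seen.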

Other observations

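The pair of GAAA units with 2 bases between them was also counted over all measured genes with a RefSeq promoter. Of 637 genes that held it, 44 (6.91%) were lower and 23 (3.61%) higher by 1.5 times or more, with a median difference of 0.02, against 4.07% lower and a median of 0.04 over all 15358 genes with a promoter. At or above the median signal, 329 genes held it. Of these, 42 (12.8%) were lower and 21 (6.38%) higher, and their median difference was -0.09. Of 8050 such genes without it, 560 (6.96%) were lower and 486 (6.04%) higher, with a median of -0.01. For the pair with 1 base between them, at such signals, 35 of 283 genes with it (12.4%) were lower, against 567 of 8096 without it (7%). The shares that were higher were 4.95% with it and 6.09% without it. The sign of the median thus differed between all genes and those at or above the median signal. Both motifs were kept or added after the members' promoters had been searched, the genes that hold them include interferon-induced genes described above, and no test of the difference between the shares was made.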
